A study of Mus musculus with 4 samples.

Results

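Conventional type 1 dendritic cells (cDC1) were examined in the liver of *Stab2-CrexERT2*; *R26-LSL-tdT* mice, where they made up 267 of 17509 cells in the tdTomato+ library and 94 of 18173 cells in the tdTomato- library. Members were chosen by their counts: a barcode had to hold 5 or more UMIs (unique molecular identifiers, each standing for 1 captured transcript) of *H2-Aa*, at least 1 of *Xcr1* and *Clec9a* together and at least 1 of *Irf8*, with 0 of *Siglech*, *Cd79a* and *C1qa* and no more than 1 over *Cd3e*, *Cd3d* and *Cd3g*. These values describe the selection and are not findings about it. In this mouse, tamoxifen given at E9.5 induced a Cre driven from the *Stab2* locus, an endothelial scavenger receptor gene, and Cre removed the stop ahead of the tdTomato reporter. CD45+ liver cells were taken at 2 months of age and sorted as tdTomato+ (batch 1) or tdTomato- (batch 2, labelled control), so both libraries carried the same alleles and the same tamoxifen exposure and differed by the reporter. The labels give the genotype as S2 and name no number of mice per library. Each condition was 1 library, so no comparison between the libraries has a replicate check, batch and sort cannot be told apart, and every interval given is a 95% interval of counting error alone.

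cDC1 are the dendritic cells that take up dying cells and display their antigens on MHC class I to CD8 T cells, a process called cross-presentation. They depend on the transcription factors IRF8 and BATF3, sense double-stranded RNA through TLR3, and carry XCR1, the receptor for the chemokine XCL1 made by NK and CD8 T cells, and CLEC9A, a receptor for the exposed actin of dead cells. The other conventional dendritic cells, cDC2, depend on IRF4 and carry SIRPA and CD11b, and in the mouse many of them express *Cd209a*. The comparison class here was set by counts too: 5 or more of *H2-Aa*, at least 1 of *Cd209a*, none of *Xcr1* and *Clec9a*, and the same limits on *Siglech*, *Cd79a*, *C1qa* and CD3 genes. It held 25 cells in the tdTomato+ library and 30 in the tdTomato- library and is called Cd209a cells below.

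The genes that set the selection lie at chr9:123852315-123862029 (*Xcr1*, minus strand), chr6:129408862-129424763 (*Clec9a*, plus strand), chr8:120736358-120756694 (*Irf8*, plus strand) and chr17:34282744-34287823 (*H2-Aa*, minus strand) in GRCm38, each annotated as a protein-coding gene. Both *Xcr1* and *Clec9a* were counted in 188 of the 267 tdTomato+ cells, *Clec9a* alone in 70 and *Xcr1* alone in 9. In the tdTomato- library 68 of 94 cells held both, 23 *Clec9a* alone and 3 *Xcr1* alone. The cDC1 were deep cells, with medians of 24249 (tdTomato+) and 26061 (tdTomato-) UMIs per cell, against 9083 and 7168 over all cells that passed the filter. Cd209a cells lay between, at 17128 and 14204.5 UMIs. The summed cDC1 counts that the comparisons rest on were 6664514 and 2477851 UMIs. Applied in turn, the *Siglech* limit removed 77 tdTomato+ and 109 tdTomato- cells and the *C1qa* limit 400 and 104. Those with 2 or more *C1qa* counts that met every other condition (308 and 42 cells) held *C1qb*, a complement gene of Kupffer cells, at 4647 and 4172 CPM (counts per 1000000 UMIs of the class) and *Naaa* at only 116 and 94.6 CPM.

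The cDC1 name was checked with genes the selection did not use, and it held for part of the members. Among cells with 10 or more counts of *Xcr1* and *Clec9a* together (148 tdTomato+ and 56 tdTomato-), *Naaa*, a lysosomal amidase, stood at 1345 and 1703 CPM. *Wdfy4*, needed for cross-presentation, stood at 904 and 941 CPM in the same cells, and *Itgae*, the CD103 integrin chain, at 217 and 194 CPM. *Lyz2*, the lysozyme gene of monocytes and macrophages, was at 345 and 449 CPM and *Cd209a* at 6.13 and 16.5 CPM. The members just inside the limit, with a single count (41 and 11 cells), looked different in both libraries. They held *Naaa* at 141 and 221 CPM, *Itgae* at 11.9 and 6.68 CPM and *Cadm1*, an adhesion gene of cDC1, at 25.2 and 20.1 CPM. Their *Lyz2* was 5244 and 8842 CPM and their *Cd209a* 233 and 1036 CPM. Cells just outside, with none of either gene and every other condition met (160 and 74 cells), held *Naaa* at 102 and 148 CPM and *Lyz2* at 10349 and 18727 CPM. The data therefore go against the label for the members with 1 count as a group, whose summed levels sit nearer to the cells outside. Single cells varied: among the tdTomato+ ones *Lyz2* ran from 0 to 638 counts, and 1 cell held 10 *Naaa* and 22 *Wdfy4* counts. At 3 to 9 counts (64 and 21 cells) *Naaa* was still at 364 and 425 CPM and *Lyz2* at 3092 and 4552 CPM. At the *H2-Aa* limit, the 15 tdTomato+ members with 5 to 9 counts held *Naaa* at 111 CPM and *Stab2* at 3022 CPM. The 5 such tdTomato- members held *Naaa* at 274 CPM and *Stab2* at 0. The name cDC1 is kept here for the class that the counts define.

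**Figure D1:**
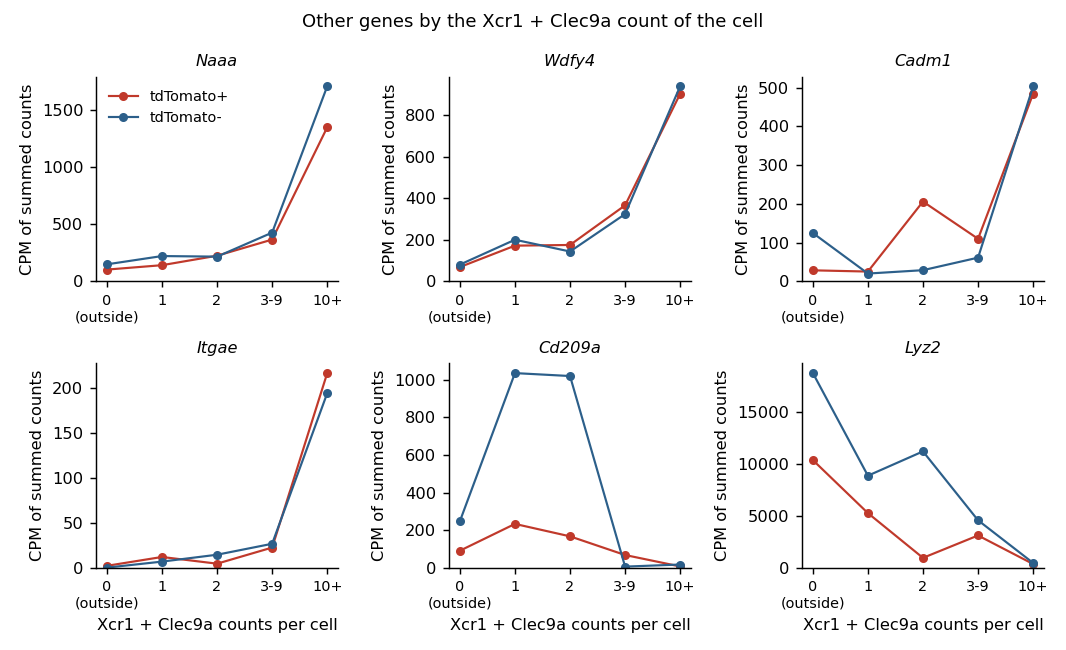
Level of 6 genes (CPM of summed counts, linear axes from 0) in cells grouped by their *Xcr1* plus *Clec9a* count, in the tdTomato+ (red) and tdTomato- (blue) library; cells with 0 counts are outside the selection. *Naaa* and *Wdfy4* were highest at 10 or more counts, where *Naaa* reached 1345 and 1703 CPM, and *Lyz2* was highest outside, at 10349 and 18727 CPM.

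A second feature separated the members by library. The tdTomato+ library held many barcodes with RNA of liver sinusoidal endothelial cells, as counted over 10 genes of that cell type (*Stab2*, *Kdr*, *Clec4g*, *Ptprb*, *Cdh5*, *Egfl7*, *Igfbp7*, *Lyve1*, *Oit3* and *Gpr182*). Of the tdTomato+ cDC1, 182 of 267 (68.2%, exact binomial interval 62.2 to 73.7%) held 3 or more such counts, and 140 held 50 or more. The median over the 267 cells was 104. Of the tdTomato- cDC1, 5 of 94 held 3 or more (5.32%, 1.75 to 11.98%). The Cd209a cells showed the same division, at 13 of 25 in the tdTomato+ library and 0 of 30 in the tdTomato- library, and so did all filtered cells, at 75.4% and 3.67%. The whole list of 20 endothelial genes summed to 9526 CPM in tdTomato+ cDC1, ranging from 0 to 60294 CPM per cell, and 20 of 20 genes were counted. In tdTomato- cDC1 the list summed to 369 CPM, ranging from 0 to 1682 per cell, with *Bmp2* at 0. In the 85 tdTomato+ members under 3 of the 10-gene counts it summed to 369 CPM as well, with *Plpp3* at 0. The 10 genes are part of the list of 20, so this low sum was partly set by the limit. The tdTomato+ members with 3 or more endothelial counts were deeper, at a median of 28548 UMIs against 17124. No doublet caller was run, and the part of these counts in the results that follow was not tested. Each comparison of libraries is therefore given for all members and for the members under 3 endothelial counts (85 tdTomato+ and 89 tdTomato-).

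**Figure D2:**
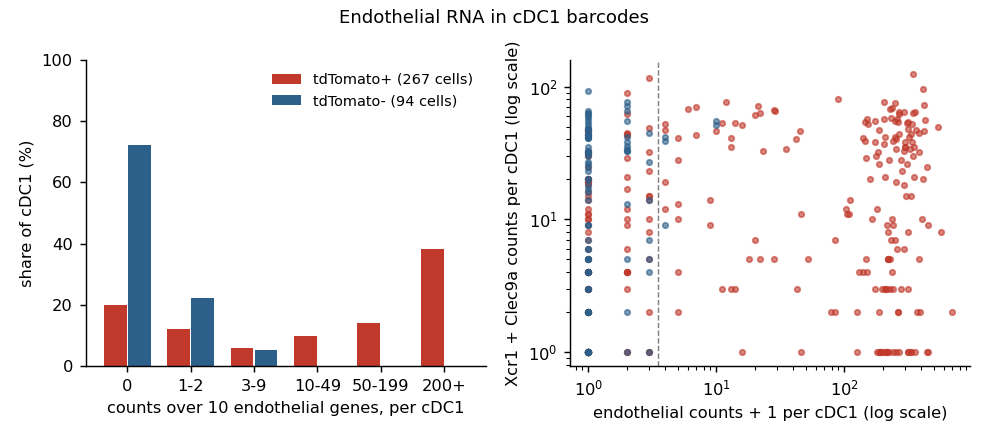
Left, share of cDC1 (%) in each class of counts summed over 10 endothelial genes, for the tdTomato+ (red) and tdTomato- (blue) library; right, the *Xcr1* plus *Clec9a* count of each cell (y) against the same endothelial counts plus 1 (x), on log axes, with the dashed line at the limit of 3. In the tdTomato+ library 182 of 267 cells lay at 3 or more, against 5 of 94 in the tdTomato- library, at low and high *Xcr1* and *Clec9a* counts alike.

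The limits on *C1qa* and CD3 counts bear directly on the Kupffer and T cell markers, whose low sums were therefore partly set by the selection. The 12 T cell markers summed to 16.8 CPM (tdTomato+) and 10.1 CPM (tdTomato-), with *Trac* and *Bcl11b* at 0 in the latter, and 0 of 267 and 0 of 94 cDC1 barcodes carried a productive T cell receptor contig, which, by a floor of 3 counts, allows shares of up to 1.12% and 3.19%. Over all filtered cells such a contig was found in 132 of 17509 (0.754%) and 2519 of 18173 (13.9%), so a share of cDC1 as low as that of all tdTomato+ cells was not detectable. The 9 Kupffer cell markers summed to 44.3 and 24.6 CPM and the 8 hepatocyte markers to 13.95 and 6.05 CPM. Monocyte markers, on which the selection set no limit, were at 1879 and 2661 CPM over 10 genes, most of it *Lyz2*. The 5 red cell markers summed to 1314 CPM in tdTomato+ cDC1, and 6943 of 6977 *Hbb-bs* counts came from 1 cell. The libraries shared 84 barcode sequences, of which 1 belonged to a tdTomato+ cDC1 and none was a cDC1 in both.

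cDC1 took a larger share of the tdTomato+ library when all members were counted, and an equal one when those with endothelial RNA were set aside. All members made up 1.52% (1.35 to 1.72%) of tdTomato+ cells and 0.517% (0.418 to 0.633%) of tdTomato- cells. Members with 10 or more *Xcr1* and *Clec9a* counts made up 0.845% (0.715 to 0.992%) and 0.308% (0.233 to 0.400%). Members under 3 endothelial counts made up 0.485% (0.388 to 0.5999%) and 0.490% (0.393 to 0.602%) of all filtered cells, intervals that overlap almost wholly. With cells of 3 or more endothelial counts left out of the denominator as well, the shares were 1.97% of 4306 tdTomato+ cells (1.58 to 2.44%) and 0.508% of 17506 tdTomato- cells (0.408 to 0.625%). The order of the libraries thus depended on the denominator, and the cells in it differed: 12.5% of tdTomato+ cells and 66.8% of tdTomato- cells met a T cell definition (3 or more CD3 counts). Per Cd209a cell there were 10.7 cDC1 (7.08 to 16.8) in the tdTomato+ library and 3.13 (2.06 to 4.90) in the tdTomato- library. Under 3 endothelial counts the ratios were 7.08 (3.85 to 14.2) and 2.97 (1.94 to 4.65), over 12 and 30 Cd209a cells, and their intervals overlap.

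**Figure D3:**
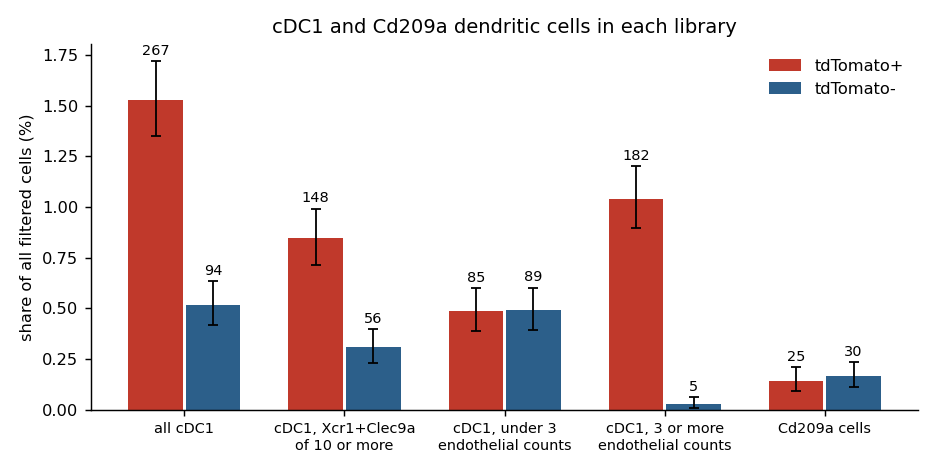
Share of all filtered cells (%) taken by cDC1, by cDC1 subsets and by Cd209a cells in the tdTomato+ (red) and tdTomato- (blue) library, with exact 95% binomial intervals as error bars and the number of cells above each bar. All cDC1 stood at 1.52% and 0.517%, and those under 3 endothelial counts at 0.485% and 0.490%.

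Which genes set cDC1 apart from Cd209a cells was asked in each library separately, from summed counts, over 3366 genes that reached 50 CPM in either class in both libraries. In both libraries 135 genes (4.01%) were at least 2-fold higher in cDC1 and 130 (3.86%) at least 2-fold lower. The fold is a rule of size, since 1 library has no test. Of the 135 genes, 119 were also 2-fold higher when the tdTomato+ cells with 3 or more endothelial counts were left out, and of the 130, 116 were also lower. Another 10 genes were at least 2-fold higher in one library and 2-fold lower in the other. Beside the genes of the selection, the genes ranked highest by the smaller of their differences in the 2 libraries were *5730522E02Rik*, *Tlr3*, *Itgae*, *Snx22*, *Gbp2b*, *Gpr141b*, *Gcsam*, *Hepacam2*, *Il12b*, *Nek6*, *Ppt1*, *Cd207* and *Ly75*. At the other end were *Sirpb1a*, *Klra17*, *Clec4b1*, *Cd209c*, *Cd209a* itself, *Clec10a*, *Abca9*, *Pltp*, *Emp1*, *Mgl2*, *Krt80*, *Itgam*, *Clec4a2*, *Ccl9* and *Pou2f2*.

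**Figure D4:**
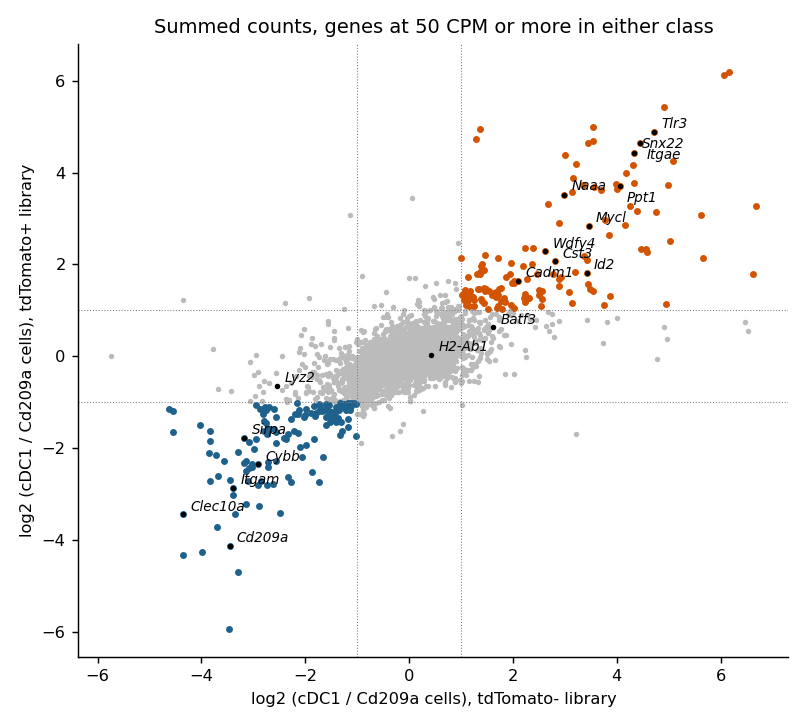
log2 ratio of cDC1 to Cd209a cells in the tdTomato- (x) and tdTomato+ (y) library for genes at 50 CPM or more in either class; orange and blue mark the 135 genes at least 2-fold higher and the 130 at least 2-fold lower in both, dotted lines mark 2-fold, and haemoglobin genes are not drawn. *Tlr3* lay at 4.71 and 4.88 and *Cd209a* at -3.46 and -4.12.

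Genes of cDC1 identity were higher as a group. Of 26 listed genes 23 were in the files and 20 were measured, and 17 of the 20 were at least 2-fold higher in cDC1 in both libraries and 0 lower, with median log2 ratios of 2.93 (tdTomato+) and 3.91 (tdTomato-), where the medians over all genes were -0.02 and 0.01. *Tlr3*, the receptor for double-stranded RNA, was at 188 CPM (177 to 198) among the tdTomato+ cDC1, at 185 CPM (168 to 203) among the tdTomato- cDC1 and at 6.37 and 7.04 CPM in Cd209a cells. *Itgae* was at 159 and 153 CPM in cDC1 and had 0 counts in Cd209a cells of either library, which makes it at least 24.9-fold and 21.7-fold higher against a floor of 3 counts over the class. *Naaa* was at 1033 and 1377 CPM in cDC1 and 91.3 and 174 CPM in Cd209a cells, log2 ratios of 3.50 (3.07 to 3.97) and 2.99 (2.66 to 3.34). *Ppt1*, a lysosomal thioesterase, was at 1004 and 1168 CPM against 76.4 and 70.4 CPM. *Wdfy4* was at 722 and 780 CPM against 149 and 127 CPM, and *Cadm1* at 370 and 393 CPM against 119 and 91.5 CPM. The 3 measured genes that missed the size rule were *Batf3*, *Plpp1* and *Rnase6*. *Batf3* was at 194 and 267 CPM in cDC1 against 125 and 86.8 CPM, with log2 ratios of 0.63 (0.25 to 1.03) and 1.62 (1.14 to 2.14). *Plpp1* stood at 424 CPM in all tdTomato+ cDC1, at 65.8 CPM in those under 3 endothelial counts and at 73.5 CPM in the tdTomato- cDC1.

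The share of cells with these transcripts was taken at 1 depth. After thinning each cell to 2000 UMIs (5 tdTomato+ and 4 tdTomato- cDC1 were shallower and left out), *Naaa* was found in 65.3% of tdTomato+ and 71.1% of tdTomato- cDC1, in 20.8% and 37.9% of Cd209a cells, and in 1.10% and 1.90% of 1000 T cells drawn from each library, which should lack it. Without thinning the *Naaa* shares were 89.3% and 94.4% in the cDC1 counted and 5% and 8.8% in the T cells, at median depths of 24857 and 26233 UMIs, with T cell medians of 8081.5 and 7764 UMIs. *Wdfy4* was found in 58.8% and 53.3% of thinned cDC1, in 16.7% and 20.7% of Cd209a cells and in 5 and 1 of the 1000 T cells. *Batf3* was found in 27.5% and 38.9% of cDC1, in 29.2% and 17.2% of Cd209a cells and in 0 and 1 of the 1000 T cells, so that in the tdTomato+ library its share was not higher in cDC1. Under 3 endothelial counts, thinned in a separate draw, the *Batf3* share was 45.0% of 80 tdTomato+ and 29.4% of 85 tdTomato- cells, the opposite order of the libraries, and no order is read from it.

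The cDC2 genes lay on the other side. Of 17 measured, 14 were at least 2-fold lower in cDC1 in both libraries and 0 higher, with medians of -1.81 and -3.18, though *Cd209a* chose the comparison cells. *Sirpa* was at 64.4 and 31.5 CPM in cDC1 and 221 and 284 CPM in Cd209a cells. *Itgam*, the CD11b chain, was at 20.4 and 20.6 CPM against 149 and 216 CPM, and *Clec10a*, a galactose lectin, at 41.0 and 32.3 CPM against 446 and 662 CPM. *Lyz2* was at 1285 and 1880 CPM in cDC1 and at 2008 and 10963 CPM in Cd209a cells, a log2 difference of -0.64 in one library and -2.54 in the other. Monocyte markers summed to 2781 and 13549 CPM in the Cd209a cells, so the comparison class itself differed between libraries. Genes shared by conventional dendritic cells differed less: *Flt3*, the receptor for the growth factor of dendritic cells, was at 187 and 228 CPM in cDC1 and 106 and 122 CPM in Cd209a cells. *Zbtb46*, a transcription factor of conventional dendritic cells, was at 142 and 135 CPM against 117 and 56.3 CPM. *Cst3*, the protease inhibitor cystatin C, was the 1 of 7 measured genes of that list past 2-fold in both libraries, at 18740 and 19972 CPM against 4471 and 2853 CPM.

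Among 22 measured transcription factors, *Id2* and *Mycl* were at least 2-fold higher in cDC1 in both libraries and *Zeb2* and *Cebpa* lower. *Id2*, which restrains E proteins during cDC1 development, was at 1743 and 1881 CPM against 495 and 176 CPM. *Mycl*, a MYC family factor of dendritic cells, was at 60.9 and 77.5 CPM against 8.49 CPM and 0 counts. *Zeb2*, a repressor linked to cDC2 and monocytes, was at 171 and 113 CPM in cDC1 against 369 and 732 CPM. *Irf4* did not reach the level floor in either library and was at 6.60 and 5.65 CPM in cDC1 and 48.8 and 35.2 CPM in Cd209a cells.

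Antigen presentation genes split by function. Of 14 measured MHC class II genes 0 were 2-fold higher and 1, the protease gene *Ctss*, was lower, and the list medians were -0.17 and 0.14. *H2-Ab1* was at 6477 and 6128 CPM in cDC1 and 6366 and 4552 CPM in Cd209a cells, and *Cd74*, the invariant chain, at 23787 and 30103 CPM against 28424 and 29084 CPM. Of 26 measured genes of MHC class I presentation and cross-presentation 2 were higher in both libraries, *Wdfy4* and *Psmb9*. *Psmb9*, an immunoproteasome subunit, was at 760 and 830 CPM in cDC1 against 289 and 260 CPM. *Cybb*, which encodes the catalytic subunit of the phagocyte NADPH oxidase, was lower, at 124 and 134 CPM against 635 and 1009 CPM. *Rab43*, a GTPase used in cross-presentation, was at 320 and 399 CPM against 166 and 101 CPM, past 2-fold in the tdTomato- library alone. Of the peptide transporter genes, *Tap1* was within 2-fold in both libraries and *Tap2*, at 220 and 272 CPM against 127 and 122 CPM, past it in the tdTomato- library alone.

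Sensing, uptake and migration genes added a few members each. Of 8 measured sensing genes *Tlr3* and *Tlr11*, a receptor for profilin of parasites, were higher in both libraries, and *Tlr11* was at 76.1 and 102 CPM in cDC1 against 25.5 and 9.39 CPM. Of 8 measured uptake genes *Cd36*, *Ly75* (DEC-205) and *Cd207* (langerin) were higher. *Ly75* was at 78.8 and 91.6 CPM and *Cd207* at 78.9 and 113 CPM in cDC1, both with 0 counts in Cd209a cells. *Cd207* was unevenly spread, in 33.0% of tdTomato+ and 36.2% of tdTomato- cDC1 and with 39.9% and 57.1% of its counts in 5 cells. Of 7 measured migration receptors *Cxcr3*, which binds interferon-induced chemokines, and *P2ry14*, a nucleotide-sugar receptor, were higher. *Cxcr3* was at 67.5 and 81.5 CPM in cDC1 against 2.12 CPM (1 count) and 0 counts. *Btla*, an inhibitory receptor, was the 1 of 7 measured regulatory genes that was higher, at 229 and 247 CPM against 25.5 and 11.7 CPM.

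Genes of dissociation stress and of the type I interferon response that passed the rule were lower in cDC1, and the 2 of the interferon-gamma response were higher. Over all measured genes 4.01% were higher and 3.86% lower. Of 16 measured stress genes 0 were higher and 4 lower in both libraries (*Junb*, *Ier2*, *Nr4a1* and *Zfp36*), with list medians of -0.69 and -0.86. Of 12 measured genes of the type I interferon response 0 were higher and 4 lower (*Oasl2*, *Oas1a*, *Rtp4* and *Ifi27l2a*), with medians of -0.39 and -0.14. Of 12 measured genes of the interferon-gamma response 2 were higher, *Psmb9* and *Cxcl10*, and 0 lower, with medians of 0.22 and 0.75. All 572 *Cxcl10* counts of tdTomato- cDC1 lay in 4 cells, and 63.4% of those of tdTomato+ cDC1 lay in 5. The *Cxcl10* difference thus rested on few cells. Of 13 measured growth factor and cytokine receptors *Csf1r* and *Il2rg* were lower and 0 higher.

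Promoters of the genes highest in cDC1 were read for short motifs of the factors named above, to show where such letters lie. The 250 bases before the first listed start of each gene came from RefSeq (GRCm38.p6), which held 14 of the 15 genes with the largest difference. The motifs searched on both strands were a repeat bound by IRF proteins, GAAA followed by any 2 bases and GAAA again, and TGANTCA, bound by AP-1 proteins, the family of BATF3. The first was in 9.01% of 111 promoters of genes higher in cDC1, in 9.78% of 92 of genes lower in cDC1, in 3.99% of 2706 of the genes measured and in 3.04% of all 27025. The second was in 9.01%, 6.52%, 4.47% and 6.87% of the same sets. An ETS and IRF composite, GGAA followed by any 2 bases and GAAA, which differs from the first motif by its second letter, was in 0 of 111, 4 of 92 and 2.38% of all. Matches not shown were in genes lowest in cDC1: the IRF repeat in *Clec4b1* and *Sirpb1a*, TGANTCA in *Ccl9* and *Emp1*, and the composite in *Pou2f2*. The windows below hold the matches in the promoters of *Gbp2b*, *Gpr141b* and *Cd207*, from the 15 genes. They also hold that of *Zbtb46*, which was not past 2-fold in both libraries. The motif is in capitals, on the strand of the gene.
Gbp2b, chr3:142594700-142594729, plus strand: gtacttctaaTTTCACTTTCttctttatca
Gpr141b, chr13:19732952-19732973, minus strand: cgttgggagtGAAAACGAAAat
Cd207, chr6:83677858-83677874, minus strand: gcctgcttttTGACTCA
Zbtb46, chr2:181424433-181424459, minus strand: ccatttacctTGACTCAtttcacagca
A match is a run of letters and was not measured as a bound site. The *Gbp2b* match is the reverse complement of the IRF repeat and lay 137 to 128 bases before the start. In the other genes the matches lay 12 to 3 bases (*Gpr141b*), 7 to 1 base (*Cd207*) and 61 to 55 bases (*Zbtb46*) before it. The *Zbtb46* start used lies inside the gene as placed in GENCODE M21 (chr2:181387762-181459426), not at its outer end. *Gbp2b*, an interferon-induced GTPase gene, was at 80.3 and 79.1 CPM in cDC1 and at 4.25 and 2.35 CPM in Cd209a cells, and *Gpr141b*, typed as a lincRNA in GENCODE M21 and as protein-coding in RefSeq, at 114 and 140 CPM against 0 counts.

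Members with proliferation transcripts were present in both libraries. Of 14 measured cell cycle genes 6 were at least 2-fold higher in cDC1 than in Cd209a cells in both libraries (*Mki67*, *Top2a*, *Stmn1*, *Birc5*, *Ube2c* and *Hmgb2*) and 0 lower. *Mki67*, the proliferation antigen, was at 163 and 217 CPM in cDC1 against 44.6 and 79.8 CPM. Thinned to 2000 UMIs, *Mki67* was found in 39 of 262 tdTomato+ and 18 of 90 tdTomato- cDC1, in 1 of 24 and 4 of 29 Cd209a cells and in 52 and 62 of the 1000 T cells, and unthinned in 30.0% and 35.1% of all cDC1. Cells with 3 or more counts of *Mki67* and *Top2a* together numbered 60 of 267 (22.5%, 17.6 to 28.0%) and 23 of 94 (24.5%, 16.2 to 34.4%). They were deeper than cells with none, at medians of 38167 and 40805 UMIs against 19162 and 22064. Their *Naaa* was at 1101 and 1327 CPM and their *Wdfy4* at 769 and 919 CPM, beside 946 and 1430 CPM of *Naaa* and 654 and 681 CPM of *Wdfy4* in cells with none. *Itgae* was lower in them, at 134 and 78.8 CPM against 166 and 203 CPM, and *Cd207* at 63.0 and 43.4 CPM against 90.0 and 166 CPM.

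A few members carried the transcripts of mature, migrating dendritic cells. *Ccr7*, the receptor that guides dendritic cells to lymph nodes, had 10 or more counts in 10 tdTomato+ and 3 tdTomato- cDC1, and 251 and 91 cells had none. The 3 tdTomato- cells held 196, 119 and 43 counts, which is the whole *Ccr7* count of that class. Of the 10 tdTomato+ cells 3 held under 3 endothelial counts, and so did the 3 tdTomato- cells. Their median count of *Xcr1* and *Clec9a* together was 6.5 (tdTomato+) and 3 (tdTomato-), against 14 and 26 in cells with no *Ccr7*. Most thus lay below 10 such counts, where the cDC1 name held less well. Whether they were mature cDC1 was not tested. In cells with 10 or more *Ccr7* counts, *Ccl22*, a chemokine of mature dendritic cells, stood at 1849 CPM (tdTomato+) and 1771 CPM (tdTomato-), against 7.86 and 2.48 CPM in cells with no *Ccr7*. *Fscn1*, an actin-bundling gene, was at 700 and 701 CPM against 24.4 and 0.826 CPM, *Relb*, an NF-kappaB subunit, at 439 and 807 CPM, and *Il12b*, the p40 chain of interleukin 12, at 1328 and 4699 CPM against 5.77 and 2.48 CPM. These summed levels were uneven: 1 of the 3 tdTomato- cells held 90 *Ccl22* counts and the others 5 and 6, and *Fscn1* had 77 and 117 counts in 2 of the 10 tdTomato+ cells, 0 in 4 of them and 0 in 1 of the 3 tdTomato- cells. Over all members *Ccr7* was at 69.8 CPM in the tdTomato+ library and at 144 CPM in the tdTomato-, a log2 difference of -1.05, and at 108 and 158 CPM (-0.55) under 3 endothelial counts. The cDC1 genes did not move together in these cells. *Xcr1*, part of the selection, was at 123 and 17.5 CPM against 491 and 517 CPM, and *Naaa* at 66.2 and 35.1 CPM against 1099 and 1409 CPM, while *Batf3* was at 151 and 298 CPM against 197 and 266 CPM and *Irf8*, part of the selection too, at 899 and 1140 CPM against 1488 and 1805 CPM. *H2-Ab1*, an MHC class II gene that chose no cell, was at 5007 and 3577 CPM against 6537 and 6188 CPM, and *Cd74* at 26387 and 31138 CPM against 23571 and 30079 CPM. All of the *Il12b* counts of tdTomato- cDC1 lay in 5 cells and 75.9% of those of tdTomato+ cDC1 in 5, so the *Il12b* difference from Cd209a cells, where it had 0 counts, rested on these few cells. Among members with 10 or more *Xcr1* and *Clec9a* counts, *Il12b* was at 40.8 CPM (tdTomato+) and 3.19 CPM (tdTomato-).

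Between the libraries, the members differed mainly in endothelial genes. Over 3767 genes at 50 CPM or more in either library, 361 (9.58%) were at least 2-fold higher in tdTomato+ cDC1 and 15 (0.398%) at least 2-fold lower. Of the 361, 345 were at least 5-fold higher in endothelial barcodes of the tdTomato+ library than in tdTomato- cDC1 under 3 endothelial counts. Endothelial barcodes were those with 3 or more counts of *Stab2* and *Kdr* together and none of *Ptprc* or *C1qa*. The share of all 3767 genes that met this 5-fold rule was not taken, so the 345 have no background value. The highest were *Stab2*, at 752 CPM against 0.404 CPM, and *Aqp1*, *Meis2*, *Oit3*, *Stab1*, *Fbxl7*, *Adgrf5*, *F8*, *Ptprb*, *Sema6a* and *Igfbp7*, beside *Hbb-bs* from the 1 cell named above. Of 20 endothelial markers 19 were higher and 0 lower, with a median log2 ratio of 7.18. Several genes of the other lists that passed in this comparison lost the difference under 3 endothelial counts: the uptake receptors *Mertk*, *Mrc1* and *Dnase1l3* (a DNA-digesting enzyme) were at 72.2, 447 and 817 CPM in all tdTomato+ cDC1, at 1.28, 8.30 and 185 CPM in those under 3 endothelial counts, and at 0, 10.9 and 207 CPM in tdTomato- cDC1. The 15 lower genes were led by *Tpm3-rs7*, *Cxcl11* and replication-dependent histone genes (*H3c2*, *H2ac10*, *H2ac8*, *H4c4*, *H2ac15*, *H2ac4*, *H3c7* and *H3c6*). *H2ac8* was at 154 CPM against 510 CPM in the tdTomato- cDC1, and at 259 and 373 CPM under 3 endothelial counts, and histone genes share much sequence, which leaves their counts uncertain. *Tpm3-rs7*, a relative of *Tpm3* whose counts are uncertain for that reason, was lower in tdTomato+ cells of each class, at 24.0 and 161 CPM in cDC1, 29.7 and 108 CPM in Cd209a cells and 15.6 and 74.8 CPM in T cells.

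Under 3 endothelial counts few genes were left. Over 3364 genes, 17 (0.505%) were at least 2-fold higher in tdTomato+ cDC1 and 20 (0.595%) at least 2-fold lower, and 10 of the 17 and 2 of the 20 were among the calls over all members. None of the 20 measured identity genes passed in either direction. At shares of 0.505% and 0.595% over all genes, most lists of this size would hold no call, so this absence says little about them. Their median log2 ratio was -0.17, against 0.01 over all genes. *Xcr1* itself, which chose the cells, was at 394 and 510 CPM. *Wdfy4* was at 742 and 759 CPM, a log2 difference of -0.03 (-0.14 to 0.07), *Tlr3* at 181 and 185 CPM (-0.03, -0.25 to 0.19), *Itgae* at 159 and 157 CPM (0.02, -0.22 to 0.26) and *Batf3* at 254 and 265 CPM (-0.06, -0.25 to 0.12). *Naaa* was lower in the tdTomato+ cells by more than counting error, at 1035 and 1370 CPM (-0.40, -0.49 to -0.32). That interval leaves out the spread between cells, which held up to 95 and 126 *Naaa* counts, with medians of 11 and 37. Members with 10 or more *Xcr1* and *Clec9a* counts numbered 41 of 85 and 52 of 89. The part of this mix in the *Naaa* difference was not tested. MHC class II genes did not pass in either direction (0 of 14), with a median of 0.05, and *Cd74* was at 29712 and 30335 CPM. Nor did class I and cross-presentation genes (0 of 26, median 0.03) or transcription factors (0 of 22, median -0.08). These lists are also short beside 3364 genes, so the same limit holds for their absence of calls.

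**Figure D5:**
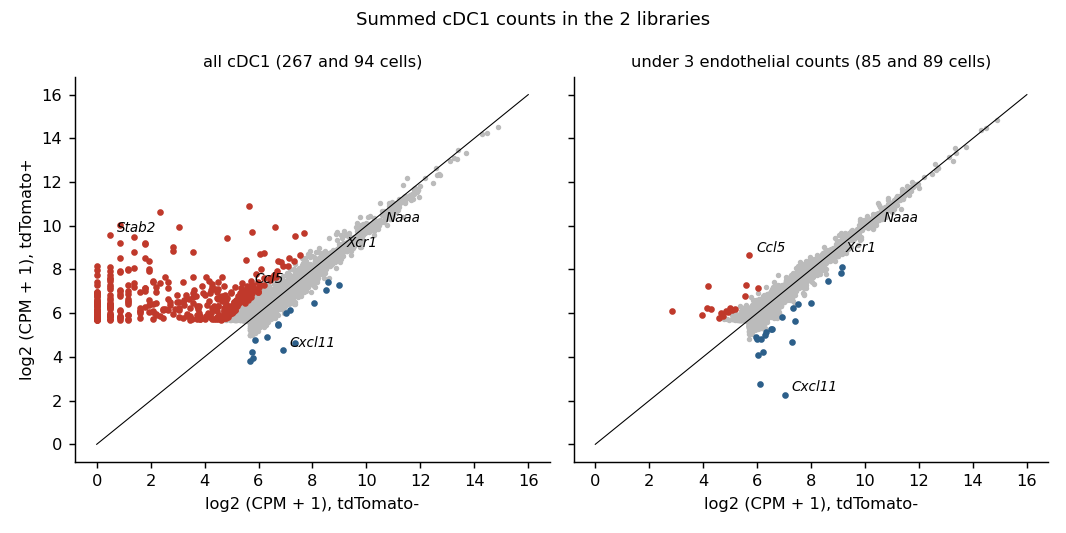
log2 (CPM + 1) of summed cDC1 counts in the tdTomato- (x) and tdTomato+ (y) library for genes at 50 CPM or more in either, for all members (left) and members under 3 endothelial counts (right); red and blue mark genes at least 2-fold higher and lower in tdTomato+ cells, and the line marks equal levels. The 361 higher genes on the left, led by *Stab2*, became 17 on the right.

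Among the genes past 2-fold were chemokines carried by few cells. Under 3 endothelial counts *Ccl5* reached 400 CPM against 51.2 CPM in the tdTomato- members, and 90.7% and 80.2% of these counts came from 5 cells each. *Ccl17*, *Apol7c*, *Cd7*, *Lmna*, *Fscn1*, *Ccl22*, *Fabp5*, *Gngt2*, *Tyms*, *Irf2bp2* and *Ctsd* were the other leading genes in that direction. *Ccl17* had 106 counts in 3 of 85 tdTomato+ cells and 14 counts in 2 of 89 tdTomato- cells. *Apol7c* was at 149 and 17.2 CPM, with 98.7% and 82.1% of counts in 5 cells. Much of this lay in the cells with 10 or more *Ccr7* counts described above, 3 in each library here. The tdTomato+ ones held 6, 153 and 80 of 247 *Ccl22* counts, 0, 34 and 56 of 106 *Ccl17* counts and 77, 0 and 0 of 114 *Fscn1* counts. For *Ccl5* they held 240, 0 and 5 of 626. The tdTomato- ones held 5, 6 and 90 of 107 *Ccl22* counts and 13, 0 and 27 of 42 *Fscn1* counts. *Cxcl9*, *Cxcl10* and *Cxcl11* were lower in the tdTomato+ cells, beside *Cxcl2*, *Hspb1*, *Xlr*, *Ube2c*, *Clec1b*, *Gm3336*, *Soat1*, *Rnd3* and *Tpm3-rs7*. *Cxcl9* and *Cxcl10* encode interferon-induced ligands of CXCR3, and *Cxcl11* is typed as a polymorphic pseudogene in GENCODE M21. *Tpm3-rs7* was spread widely, with counts in 20 of 85 tdTomato+ and 69 of 89 tdTomato- cells. *Cxcl9* was at 225 and 547 CPM, in 24 of 85 and 17 of 89 cells, so the library with the lower level had the larger number of cells with a count. In the tdTomato- library 96.9% of *Cxcl9* counts came from 5 cells, and *Cxcl10* (572 counts) and *Cxcl11* (292 counts) came from 4 cells each. Over all members the *Cxcl9* levels were 342 and 501 CPM. Over all members *Cxcl9* was counted in 122 of 267 and 17 of 94 cells. Among cells with 10 or more *Xcr1* and *Clec9a* counts as well (41 and 52 cells), *Ccl5* was at 2.94 and 14.01 CPM, the opposite order, and *Cxcl9* was at 135 and 454 CPM. Of the 17 higher genes, 6 were at least 2-fold higher in those cells too, and of the 20 lower genes, 18 were lower. Set beside other classes, 3 of the 17 were higher in tdTomato+ Cd209a cells and 1 in tdTomato+ T cells, and 5 and 3 of the 20 were lower.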

How the data were processed

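CD45+ liver cells were profiled with 10x Chromium 5′ libraries. The authors deposited unnormalized UMI counts for each library's genes and barcodes, made with Cell Ranger (version 10.0.0 in the matrix headers; genome mm10 in the submitters' notes), and tables of T cell receptor contigs. Each condition was 1 library. Barcodes were kept from 300 detected genes upward and up to 10% mitochondrial counts. Counts were summed per class and library and expressed per 1000000 UMIs (CPM), and genes at 50 CPM or more in either class were compared by a 2-fold rule, with a count of 0 set to 3 for bounds. Intervals are exact binomial, Poisson or conditional binomial at 95% and cover counting error only. No test was run and no doublets were removed. Named genes were those of the rule, members of 29 gene lists, the 15 largest differences each way from Cd209a cells and the 12 largest each way between libraries, over all members and under 3 endothelial counts. Positions are from GENCODE M21. The members and lists were chosen with earlier results of these data known. The ratio code was checked on simulated counts (Python 3.11.15, NumPy 2.4.6, SciPy 1.17.1). Alternatives were 11 planned settings and 2 added after seeing the data. Some members of the gene lists are not reported here.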

Additional observations from a re-analysis of the deposited data

Results flagged for a closer look

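*Il1b* and *Hbb-bs* were at least 2-fold higher in tdTomato+ cDC1 and at least 2-fold lower in tdTomato+ Cd209a cells than in the tdTomato- cells of the same class. With 1 library per condition this difference between the classes was not tested. *Il1b*, an inflammatory cytokine, was at 79.8 and 29.9 CPM in cDC1 and at 34.0 and 608 CPM in Cd209a cells, a gap of 5.58 between the log2 ratios, and monocyte markers summed to 2781 and 13549 CPM in those Cd209a cells. *Hbb-bs*, a haemoglobin gene, was at 1047 and 0.807 CPM in cDC1 and at 8.49 and 15173 CPM in Cd209a cells, a gap of 21.1. Of its counts 6943 of 6977 in tdTomato+ cDC1 and 6436 of 6466 in tdTomato- Cd209a cells lay in 1 cell each.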

How the results depend on the processing

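Of the alternative values for shares, ratios and gene counts, 49 stayed within the interval of the value reported, or within 1.5 times it for counts, and 35 did not. The share of cDC1 in the tdTomato+ library was 1.29% with 2 or more *Xcr1* and *Clec9a* counts, 1.34% with 20 or more *H2-Aa* counts, 1.97% with cells of 3 or more endothelial counts left out, 0.928% with cells above 3 times the library's median UMIs left out, 0.845% with 10 or more *Xcr1* and *Clec9a* counts and 0.952% with that limit and the endothelial one together. In the tdTomato- library the depth limit gave 0.203%, and the last pair of settings gave 0.308% and 0.297%. cDC1 per Cd209a cell under that pair were 5.92 and 3.42 (tdTomato+) and 1.87 and 1.73 (tdTomato-), and the depth limit gave 1.35 in the tdTomato- library. The share was higher in the tdTomato+ library under each of these settings, and equal for cDC1 under 3 endothelial counts over all cells.

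Genes higher in cDC1 than Cd209a cells numbered 73 with the depth limit, 238 at a floor of 20 CPM and 31 at 200 CPM. Genes lower numbered 198 under 3 endothelial counts, 54 with the depth limit and 220 with 10 or more *Xcr1* and *Clec9a* counts. They numbered 307 with the endothelial and *Xcr1* plus *Clec9a* limits both set, 221 and 41 at the 20 and 200 CPM floors and 214 after thinning. Genes higher in tdTomato+ cDC1 numbered 17 under 3 endothelial counts and 17 with both limits, 760 and 53 at the 2 floors and 594 after thinning. Genes lower numbered 166 with the depth limit, 26 with both limits, 43 and 4 at the floors, 24 with means of per-cell CPM and 193 after thinning. Fewer cells or counts enter the depth limit and the thinning; other causes were not tested. Median-of-ratios scaling moved no count past 1.5 times.

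The log2 difference between libraries turned in sign for *Ccr7* with no CD3 counts allowed (0.023), with the depth limit (0.0055), with 10 or more *Xcr1* and *Clec9a* counts (at least 2.61) and with both limits (at least 2.97); the last 2 are bounds, set against a floor of 3 counts because the tdTomato- cells had 0. It turned for *Ccl22* with the depth limit (-0.72) and for *Ccl5* with both limits (-2.25). For *Kdr* it turned under 3 endothelial counts (-1.47), and for *Clec4g* under the same limit (-0.47) and both (-1.25). *Kdr* and *Clec4g* had 10 or fewer counts in each library there. They are among the 10 genes that the endothelial limit caps, so nothing is read from their change of sign. No log2 ratio of cDC1 to Cd209a cells followed here turned in sign. No ratio was given in 11 cases where counts were at or under the floor of 3. No paired analysis was possible because the libraries share no replicate and the results come from no test.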
